A study of Mus musculus with 24 samples.

Results

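Swimming training before myocardial infarction was compared with no training in hearts that carried a miR-21 vector, across all genes of the authors' count table. The comparison uses 11 of the 23 RNA-seq libraries analysed: 5 from mice that swam and 6 from mice that did not. All mice, controls included, had been ovariectomised, had undergone infarction surgery and were sampled 3 weeks later. Both groups had received AAV9, an adeno-associated virus used to deliver genes to the heart, overexpressing miR-21, and they differ by label in swimming alone. The other 12 libraries, 6 with swimming and 6 without, came from mice given empty AAV9, and they serve here as the reference for the effect of swimming without miR-21. The labels give no promoter for the vector, no age, and no length or dose of training. Whether the libraries stem from different mice is not stated, so p-values reflect only how far these samples spread, which may be technical.

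An infarct kills cardiomyocytes, and fibroblasts that become activated in its place lay down a collagen scar while the surviving muscle works harder. Heart muscle draws most of its ATP from oxidation of fatty acids in mitochondria, and endurance training is known for raising that capacity. MicroRNAs such as miR-21, which is abundant in fibroblasts and in injured hearts, lower the output of messenger RNAs whose 3′ untranslated region (UTR) pairs with bases 2 to 8 of the microRNA, its seed. Ovariectomy removes the main source of oestrogens.

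Libraries held 12744241 to 14608507 counts in the controls and 12839383 to 14546209 in the swimming group. Values are in CPM, counts normalised to library size after trimmed-mean scaling. The 16 cardiomyocyte markers were all detected, with summed levels of 141451 to 152326 CPM in controls and 82364 to 160901 CPM in swimming libraries. Swimming replicate 2 is the library at 82364 CPM. It stood apart on the first principal component (43.9% of variance), at 84.3 against -34.1 to 10.8 in the other 10 libraries of these groups. Its correlations with the other swimming libraries were 0.912 to 0.944, and those among the other 4 were 0.979 to 0.989. Sample titles carry lower numbers in all controls and in swimming replicates 1 and 2, and higher numbers in swimming replicates 3 to 5. A further swimming library that the labels list was not analysed here.

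The number of genes called changed by swimming under the miR-21 vector depended on the test. Of 13501 genes tested, 23 passed an adjusted p under 0.05 in edgeR's quasi-likelihood test (0.17%), 7 higher (0.0518%) and 16 lower (0.119%) after swimming. Limma voom called 299 and DESeq2 403. At an unadjusted p under 0.05 in the quasi-likelihood test there were 2532 (18.8%), 1284 higher and 1248 lower. Among the genes that fell were Msrb1, Ciapin1 and Hpdl, which encode enzymes or assembly factors of redox metabolism, the ribosomal protein genes Rps29, Rplp2 and Rps13, and Tmem258, Manea, Yif1b and Yipf4 of the endoplasmic reticulum and Golgi. Among those that rose were the survival gene Mcl1, the nucleolar gene Tcof1 and the Notch coactivator gene Maml3. Changes were modest, from -1.03 to 0.64 on the log2 scale, and each was on the same side of the control mean in 5 of 5 swimming libraries. The libraries of the groups did not overlap for 21 of the 23 (all but Golgb1 and Cryba4), against 2.76% of all tested genes (0.948% higher and 1.81% lower). Both traits follow largely from picking genes by small p in these same libraries, so they are no further support. Adjusted p ran from 0.0345 to 0.0476, and the count depended on which libraries entered. It was 13 without swimming replicate 2 (7 of the 23 among them) and 0 with the 2 groups alone or with the 3 higher-numbered swimming libraries alone. The 2 lower-numbered swimming libraries, replicate 2 among them, gave 862, with 21 of the 23. With the title series as a term edgeR called 1076. That term can be estimated only within the miR-21 swimming group, so its swimming effect too rests on the 2 lower-numbered swimming libraries against controls. The count was 0 without control replicate 1, 3, 4 or 6, 1 without control replicate 2, and 1, 8, 9 and 86 without swimming replicates 1, 3, 4 and 5. Empty vector libraries, which share the estimate of spread, moved it too: 58 and 13 without controls 2 and 6, and 9 and 2 without swimming replicates 2 and 5. All 23 kept their direction in each of 35 alternatives. Many of these use the same swimming and control libraries on which the 23 were picked, so the direction could hardly change there.

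**Figure D1:**
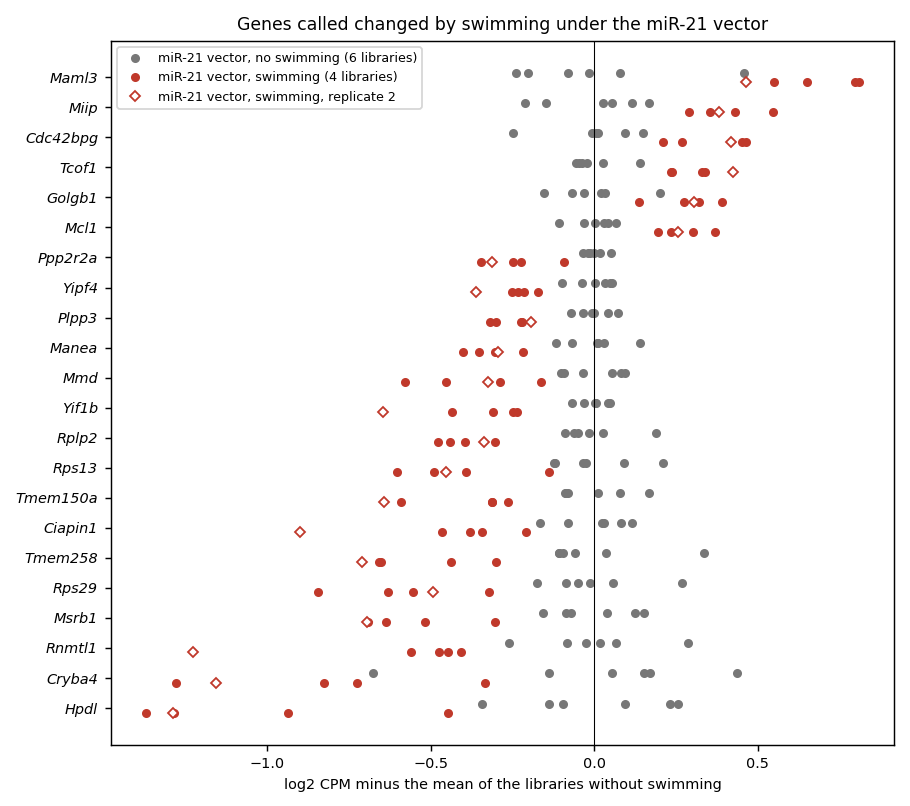
Genes called changed by swimming under the miR-21 vector, 22 of the 23. The x axis is log2 CPM minus the mean of the 6 control libraries, grey points are controls, red points are swimming replicates 1, 3, 4 and 5, and the open diamond is swimming replicate 2. The 5 swimming libraries lie to the right of 0 for the genes that rose and to the left for the 16 that fell.

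Msrb1, Ciapin1, Rnmtl1 and Hpdl fell with swimming. Msrb1 encodes a selenoprotein that reduces oxidised methionine in proteins. In controls its lowest, median and highest levels were 172, 190.1 and 214 CPM. The swimming libraries, in the order of replicates 1 to 5, held 123, 119, 119, 134 and 156 CPM of Msrb1, all below every control. Its log2 fold change was -0.57 ± 0.10 (SE, edgeR adjusted p = 0.0345), and -0.53 ± 0.10 without replicate 2. Among 21 methionine sulfoxide reductases and selenoproteins tested, Msrb1 alone was called, and the list's median was -0.07 against 0.03 over all tested genes. Its relatives Msrb2 (-0.15 ± 0.10), Msrb3 (-0.23 ± 0.08) and Msra (-0.16 ± 0.08) had adjusted p of 0.415, 0.151 and 0.308.

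Ciapin1, which assembles iron-sulphur clusters for cytosolic proteins, had 77.3, 88.3 and 93.9 CPM as lowest, median and highest control levels. In swimming libraries it was at 66.6, 46.5, 62.8, 75.01 and 68.4 CPM, again below all controls, with replicate 2 the lowest. The log2 fold change was -0.45 ± 0.09 (SE, edgeR adjusted p = 0.0407), and -0.34 ± 0.07 without replicate 2. Rnmtl1, a methyltransferase of mitochondrial ribosomal RNA, stood at 26.7, 31.9 and 38.97 CPM in controls and 24.1, 13.6, 23.4, 21.6 and 22.98 CPM in swimming libraries. Replicate 2 was well below the rest, and the change went from -0.61 ± 0.13 (SE, edgeR adjusted p = 0.0476) to -0.47 ± 0.10 without it. Hpdl, a mitochondrial dioxygenase-like enzyme linked to coenzyme Q synthesis, was scarce. It had 4.19, 5.33 and 6.35 CPM in controls and 2.78, 2.18, 2.19, 3.90 and 2.06 CPM with swimming, the deepest fall on the log2 scale at -1.03 ± 0.19 (SE, edgeR adjusted p = 0.0407).

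Proteins of the cytosolic ribosome gave 3 of the falls. Rps29, Rps13 and Rplp2 encode small-subunit proteins and an acidic stalk protein of the large subunit. Controls held 262, 289 and 355 CPM of Rps29 (lowest, median, highest) and swimming libraries 164, 209.7, 236, 190.5 and 201 CPM, without overlap. Rplp2 went from 228, 237 and 276 CPM to 174, 192, 196, 178 and 184 CPM, where the swimming libraries lay within a narrow band. Rps13 went from 176, 187 and 221 CPM to 126, 139.7, 174, 136 and 146 CPM. The log2 fold changes were -0.57 ± 0.11 (SE, edgeR adjusted p = 0.0407), -0.39 ± 0.07 (SE, edgeR adjusted p = 0.0407) and -0.41 ± 0.09 (SE, edgeR adjusted p = 0.0476), and -0.58, -0.40 and -0.39 without replicate 2.

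The 3 genes are not the whole family. Of 82 cytosolic ribosomal protein genes tested, 3 fell, none rose, and 55 had values below 0, with a median of -0.05 against 0.03 over all tested genes. The p was under 0.05 unadjusted in 13 downward (of all tested genes 9.24%) and 2 upward (9.51%). The median length of these genes was 808 bases. Of the 1351 tested genes of 292 to 1386 bases, the shortest of 10 length bins, 267 were downward and 66 upward at that p. The part of length in the ribosomal values was not tested. Without replicate 2 the median was -0.11, 71 of 82 lay below 0, and Rps28 (-0.59 ± 0.11) was called. Rps28 stood at 128, 135 and 162 CPM in controls and 75.4, 121, 109, 84.3 and 94.2 CPM with swimming. Rpl3 (0.13 ± 0.13) and Rps26 (0.16 ± 0.10), chosen after their values were seen, lay above 0 and were not called. These genes have near-identical processed copies in the genome, and how reads were shared among them is not given in the sources used here, so each value is uncertain to that extent.

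Tmem258, Manea, Yif1b and Yipf4, which encode proteins of the secretory pathway, fell as well. Tmem258 is a small subunit of oligosaccharyltransferase, the enzyme that attaches glycans to new proteins in the endoplasmic reticulum. Its control levels were 57.3, 58.6 and 77.9 CPM and its swimming levels 39.1, 37.8, 50.2, 39.3 and 45.6 CPM, without overlap, a change of -0.55 ± 0.10 (SE, edgeR adjusted p = 0.0407). Manea, a Golgi endomannosidase that trims those glycans, went from 26.5, 28.9 and 31.6 CPM to 21.8, 23.4, 23.3, 22.5 and 24.7 CPM (-0.31 ± 0.06 SE, edgeR adjusted p = 0.0407). Yif1b and Yipf4, Yip-family proteins of endoplasmic reticulum to Golgi traffic, fell by 0.37 ± 0.07 and 0.25 ± 0.05 on the log2 scale (SE, edgeR adjusted p = 0.0407 for both). For Yif1b controls held 48.02, 50.4 and 52.04 CPM and swimming libraries 37.2, 32.1, 40.6, 42.7 and 42.3 CPM, replicate 2 the lowest. For Yipf4 controls held 38.8, 42.1 and 43.2 CPM and swimming libraries 34.9, 32.4, 35.4, 36.9 and 35.8 CPM, again without overlap.

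Golgb1, which encodes the large Golgi tether giantin, moved the other way. Its control levels were 57.99, 64.2 and 74.2 CPM and its swimming levels 84.5, 79.7, 80.5, 78.02 and 70.8 CPM, so that replicate 5 lay below the highest control, and the change was 0.28 ± 0.06 (SE, edgeR adjusted p = 0.0476). Among 23 Golgi traffic and glycan-trimming genes 1 rose, 3 fell and the median was 0.02, beside 0.0518% higher and 0.119% lower of all tested genes. This list was added later with earlier results known and holds the called genes, so its count of calls is no further support. Without replicate 2 none of these Golgi genes was called and the median was -0.03. Among 22 oligosaccharyltransferase and translocon genes 1 fell, and the median was -0.03. Without replicate 2, 0 of the 22 were called and the median was -0.08. The translocon gene Sec61g, chosen after its values were seen, had -0.47 ± 0.10 (adjusted p = 0.0585).

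The other genes that fell were Plpp3, Ppp2r2a, Mmd, Tmem150a and Cryba4. Plpp3, a lipid phosphate phosphatase that degrades lysophosphatidic acid, went from 126, 132 and 139 CPM to 114, 116, 106, 114 and 108 CPM (-0.25 ± 0.05 SE, edgeR adjusted p = 0.0407). Ppp2r2a, a regulatory subunit of protein phosphatase 2A, went from 63.00, 64.1 and 66.9 CPM to 55.2, 51.9, 54.3, 50.8 and 60.5 CPM (-0.24 ± 0.05 SE, edgeR adjusted p = 0.0407). Both were below all controls in every swimming library, with small spread in the controls. Mmd, a membrane protein first linked to macrophage maturation, had 61.3, 66.3 and 70.3 CPM in controls and 48.1, 52.5, 44.1, 58.8 and 53.96 CPM with swimming (-0.36 ± 0.07 SE, edgeR adjusted p = 0.0407). Tmem150a, which helps a phosphoinositide kinase complex at the plasma membrane, had 58.6, 60.9 and 69.9 CPM in controls and 51.9, 39.9, 41.4, 50.1 and 50.2 CPM with swimming (-0.42 ± 0.09 SE, edgeR adjusted p = 0.0427). Cryba4, a beta crystallin known from the lens, was low at 3.20, 5.49 and 6.92 CPM in controls. Its swimming libraries, at 4.05, 2.29, 2.11, 3.09 and 2.88 CPM, overlapped the lowest control (-0.86 ± 0.18 SE, edgeR adjusted p = 0.0476).

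Mcl1 rose with swimming. It encodes an anti-apoptotic member of the BCL2 family that cardiomyocytes need for survival. Controls held 246, 268 and 277 CPM and swimming libraries 326, 316, 342, 311 and 303 CPM, without overlap, a change of 0.27 ± 0.05 (SE, edgeR adjusted p = 0.0407) and 0.28 ± 0.05 without replicate 2. Of 18 BCL2 family genes Mcl1 alone was called. The values of Bcl2 (0.16 ± 0.18), Bcl2l1 (0.01 ± 0.21) and Bax (0.01 ± 0.11) did not pass, and the list's median was 0.10 (-0.04 without replicate 2).

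Tcof1 encodes treacle, a nucleolar protein of ribosomal RNA transcription. It went from 21.3, 21.7 and 24.4 CPM in controls to 28.00, 29.7, 27.9, 26.1 and 26.1 CPM (0.31 ± 0.05 SE, edgeR adjusted p = 0.0345). Maml3, a Mastermind coactivator of Notch, rose most on the log2 scale, from 5.97, 6.82 and 9.67 CPM to 12.2, 9.71, 12.3, 10.3 and 11.04 CPM (0.64 ± 0.13 SE, edgeR adjusted p = 0.0407). Swimming replicate 2 of Maml3 cleared the highest control by little, and the value was 0.69 ± 0.13 without it. Of 17 Notch pathway genes Maml3 alone was called, and the receptors Notch1 (0.11 ± 0.10) and Notch4 (0.05 ± 0.13) were not.

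Cdc42bpg, a kinase activated by the GTPase Cdc42, rose from 25.98, 31.00 and 34.2 CPM to 37.2, 41.2, 42.1, 35.7 and 42.6 CPM (0.36 ± 0.07 SE, edgeR adjusted p = 0.0407). Miip, an inhibitor of cell migration, rose from 13.9, 16.6 and 18.1 CPM to 20.6, 21.1, 23.6, 19.7 and 21.7 CPM (0.40 ± 0.08 SE, edgeR adjusted p = 0.0407). No swimming library of Cdc42bpg or Miip overlapped a control.

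Of the genes around the threshold, Golgb1, Rps13, Rnmtl1 and Cryba4 were just inside it (adjusted p = 0.0476 in edgeR). Just outside it lay Rhbdl1 and Ccdc9 (adjusted p = 0.0503 for both), Mief2 (0.0558), Phka1 (0.0569) and Vmac (0.0569). Phka1, a muscle subunit of phosphorylase kinase that starts glycogen breakdown, had 105, 125 and 144 CPM in controls and 94.8, 53.2, 76.3, 79.9 and 92.9 CPM with swimming (-0.65 ± 0.14). Mief2, which recruits the mitochondrial fission factor Drp1, had -0.47 ± 0.10. Without replicate 2, 13 genes passed, each at an adjusted p of 0.0496 in edgeR. Besides Msrb1, Rplp2, Ciapin1, Plpp3, Mcl1, Tcof1 and Maml3 these were Rps28, Plin5, Csnk1e, Rufy3, Mtmr14 and Tagap1. Plin5, which coats lipid droplets in oxidative muscle, had 142, 191 and 245 CPM in controls and 119, 63.5, 144, 114 and 148 CPM with swimming, a log2 value of -0.54 ± 0.11 without replicate 2. Csnk1e, a clock kinase, had 0.35 ± 0.07, and replicate 2 at 56.1 CPM was below all controls while the other 4 swimming libraries were above them.

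Respiratory chain genes had values below 0 in nearly every case, and none was called. Of 35 oxidative phosphorylation genes 0 passed and 35 had values below 0, with a median of -0.25 against 0.03 over all tested genes. By complex the medians were -0.27 for 36 complex I subunits, -0.24 for 16 cytochrome c oxidase subunits and -0.26 for 17 ATP synthase subunits. Unadjusted p was under 0.05 downward in 21, 9 and 8 of them, beside 9.24% of all tested genes. The 77 mitochondrial ribosomal protein genes had a median of -0.19 (33 downward at unadjusted p under 0.05), and 30 fatty acid oxidation genes -0.23 (11 downward).

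Within complex I, Ndufa3, Ndufc1, Ndufa2 and Ndufa1 had the lowest values. Ndufa3, an accessory subunit, stood at 252, 285 and 343 CPM in controls and 192, 128, 236, 202 and 225 CPM with swimming (-0.56 ± 0.14 SE, edgeR adjusted p = 0.0713). Ndufc1 stood at 118, 137 and 168 CPM in controls and 99.7, 66.8, 94.98, 113 and 109.7 CPM with swimming (-0.52 ± 0.13 SE, edgeR adjusted p = 0.0681). In both genes all swimming libraries were below all controls, and replicate 2 was lowest. The core subunits Ndufs1 (-0.19 ± 0.14) and Ndufv1 (-0.17 ± 0.13) lay nearer to 0. Among ATP synthase genes Atp5k (-0.54 ± 0.14) and Atp5l (-0.50 ± 0.14) were lower than the catalytic Atp5a1 (-0.14 ± 0.13) and Atp5b (-0.12 ± 0.13). Subunits other than Ndufa1 were chosen after their values were seen. Median lengths were 710 bases for complex I, 588 for cytochrome c oxidase and 903 for ATP synthase genes. Over all tested genes of 292 to 1386 bases the median log2 fold change was -0.04, and -0.07 without replicate 2. The part of gene length in the differences among subunits was not tested.

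**Figure D2:**
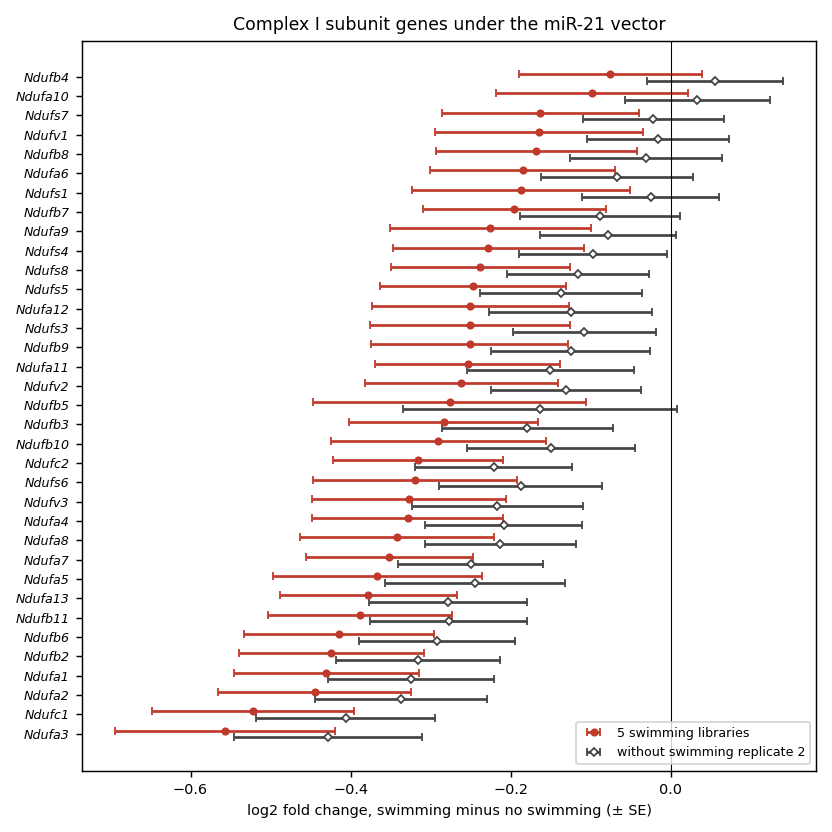
Log2 fold change of swimming against no swimming (x axis, ± SE) for 35 of 36 complex I subunit genes under the miR-21 vector, with all 5 swimming libraries (filled red) and without swimming replicate 2 (open). Values run from -0.56 to -0.08 with all libraries, and Ndufa10 and Ndufb4 lie above 0 without replicate 2.

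The medians lay nearer to 0 without replicate 2. The oxidative phosphorylation level, the mean log2 CPM of the list relative to all 23 libraries, was -0.78 in replicate 2, -0.07 to 0.10 in the other swimming libraries and 0.02 to 0.36 in controls. Its cardiomyocyte level was -0.53, against 0.00 to 0.23 in controls. Without it the medians were -0.11 for oxidative phosphorylation (4 of 35 above 0), -0.15 for complex I, -0.14 for cytochrome c oxidase, -0.12 for ATP synthase, -0.09 for mitochondrial ribosomal proteins and -0.09 for fatty acid oxidation. In bulk tissue fewer cells of a type and less RNA per cell cannot be told apart.

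Markers of several other cell types were highest in swimming replicate 2. Control replicate 6 had the highest control levels for mesothelial (1.37), neutrophil (0.92), T and NK cell (1.05), inflammatory (1.32) and MHC class II (1.03) genes. For inflammatory and MHC class II genes swimming replicate 2 was at 1.75 and 1.24. Of 15 mesothelial genes tested (the lining of the heart surface) all 15 had values above 0, with a median of 1.94, but -1.18 and 3 of 15 without replicate 2. Its mesothelial level was 4.05, the other swimming libraries -1.17 to 0.31 and the controls -1.54 to 1.37. Upk3b, a defining mesothelial gene, was at 55.8 CPM in replicate 2, 0.15 to 2.21 CPM in the other swimming libraries, and from 0 to 4.62 CPM in controls. Neutrophil genes were also high there, with a median of 3.58 and 1.03 without it (9 of 10 above 0). Ngp, a neutrophil granule gene, was at 241 CPM in replicate 2 and at most 3.59 CPM in the other swimming libraries.

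For B and plasma cells the median was 1.79, and -0.31 without replicate 2. For fibrillar collagen and matrix it was 0.35 (30 of 33 above 0) and -0.21 (4 of 33). In that list Thbs2, a matricellular thrombospondin, had 36.2, 38.3 and 43.7 CPM in controls and 52.5, 63.9, 91.4, 34.2 and 63.7 CPM with swimming (0.63 ± 0.27 SE, edgeR adjusted p = 0.217), with 0.62 without replicate 2. For activated fibroblasts it was 0.60 and 0.02, for macrophages 0.57 and -0.09, and for cell division 0.66 (29 of 30 above 0) and -0.12 (11 of 30). Fat markers had a median of 0.25 and 0.14, with Cfd (adipsin) at 147 CPM in replicate 2 against 0.515 to 6.01 CPM in the others. Of the 35 lists of cell types and pathways, 687 genes were tested and 0 were called, beside 0.17% of all tested genes. Without replicate 2 it was 1 (Csnk1e), beside 13 of 13530 tested genes. With so few calls over all genes, these counts say little about the lists. The part of these other tissues in the 23 calls was not tested beyond leaving libraries out. The 3 libraries of the series with the highest adipocyte levels were swimming replicate 2 and empty vector controls 2 and 5. Without them 134 genes were called, 22 of the 23 among them.

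**Figure D3:**
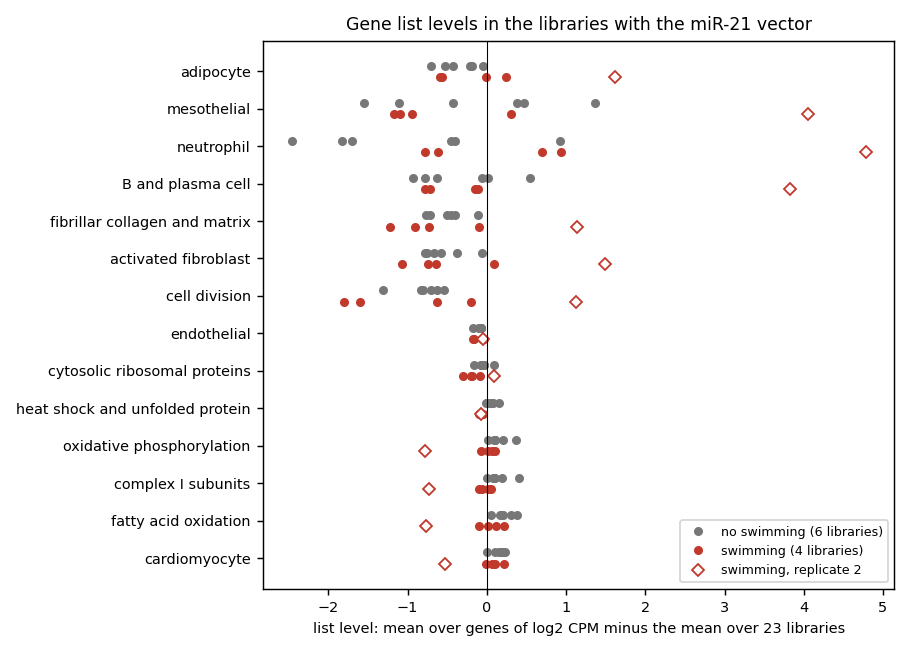
Level of 14 gene lists (x axis: mean over genes of log2 CPM minus the gene's mean over all 23 libraries) in each library with the miR-21 vector, controls in grey, swimming replicates 1, 3, 4 and 5 in red, and swimming replicate 2 as an open diamond. Replicate 2 is highest for mesothelial (4.05), neutrophil (4.78) and adipocyte (1.62) genes and lowest for oxidative phosphorylation (-0.78).

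For other lists replicate 2 was not the extreme library. Heat shock and unfolded protein genes had a level of -0.01 to 0.15 in the 6 controls and -0.10 to -0.05 in the 5 swimming libraries, which did not overlap. The list of lipid droplet and phospholipid enzymes, read further below, did not overlap either. Of the heat shock and unfolded protein genes the counts were as follows. Of 24 tested, 0 were called, 7 lay above 0 and 7 had an unadjusted p under 0.05 downward, with a median of -0.11 (-0.15 without replicate 2). Of all tested genes 56.0% lay above 0 and 9.24% had an unadjusted p under 0.05 downward. Hspe1, the mitochondrial chaperonin 10, had -0.31 ± 0.09 (SE, edgeR adjusted p = 0.0858), and the small heat shock protein gene Cryab -0.44 ± 0.14 (SE, edgeR adjusted p = 0.123). Of 17 pericyte and smooth muscle genes 14 lay above 0, with a median of 0.06 (15 and 0.12 without replicate 2). Myh11, smooth muscle myosin, stood at 31.1, 38.1 and 44.2 CPM in controls and 73.6, 56.3, 49.3, 47.6 and 52.4 CPM with swimming, without overlap, at 0.56 ± 0.13 (SE, edgeR adjusted p = 0.0629). Mylk, its activating kinase, had 28.2, 29.7 and 31.6 CPM in controls and 37.4, 41.5, 35.1, 36.6 and 34.7 CPM with swimming (0.32 ± 0.09 SE, edgeR adjusted p = 0.083), also without overlap.

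Skeletal muscle and cardiomyocyte markers had values below 0 in most cases. Of 11 skeletal muscle genes tested 2 lay above 0, with a median of -0.24 (-0.11 without replicate 2). Casq1, the fast-muscle calsequestrin, had 13.8, 28.2 and 35.2 CPM in controls and 15.2, 14.9, 5.31, 14.8 and 10.7 CPM with swimming (-1.12 ± 0.32 SE, edgeR adjusted p = 0.105), and Acta1, skeletal actin, -1.13 ± 0.51 (SE, edgeR adjusted p = 0.245). Of the 16 cardiomyocyte genes 3 lay above 0, with a median of -0.16 (-0.03 and 5 of 16 without replicate 2), and Casq2, the calsequestrin of heart muscle, had -0.46 ± 0.14 (SE, edgeR adjusted p = 0.113). The cardiac stress list did not lean that way, with 9 of 15 above 0 and a median of 0.02, but 4 of 15 and -0.23 without replicate 2. In it Fhl1, a LIM protein of hypertrophy, had 195, 279 and 349 CPM in controls and 178, 229, 169.7, 216 and 203 CPM with swimming (-0.48 ± 0.16 SE, edgeR adjusted p = 0.151), with -0.53 without replicate 2. The atrial and conduction list was evenly split, with 6 of 12 above 0 and a median of 0.01, and in it Tbx3, a transcription factor of the conduction system, had -0.39 ± 0.14 (SE, edgeR adjusted p = 0.167). None of these lists held a called gene, where 0.17% of all tested genes were called.

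Other members of the families of called genes were read next. Of 14 protein phosphatase 2A subunits Ppp2r2a alone fell, with a median of -0.07, and without replicate 2 none was called and the median was -0.001. Of 19 lipid droplet and phospholipid enzymes Plpp3 alone fell, with a median of -0.13 (-0.07 and 2 called, Plpp3 and Plin5, without replicate 2). The level of that list was 0.08 to 0.15 in controls and -0.35 to 0.04 in swimming libraries, without overlap and with replicate 2 the lowest. Unadjusted p was under 0.05 downward in 7 of the 19, beside 9.24% of all tested genes. For 16 glycogen enzymes the median was -0.11 (-0.02 without replicate 2), and for 9 caveola genes -0.03 (-0.05). DNA replication genes had a median of 0.39 (20 of 24 above 0) and 0.11 (15 of 24) without replicate 2. Mcm4, a subunit of the replicative helicase, had 9.06, 9.70 and 12.2 CPM in controls and 12.98, 15.2, 13.97, 10.2 and 11.04 CPM with swimming (0.30 ± 0.11 SE, edgeR adjusted p = 0.166). Immediate early genes had a median of 0.23 (20 of 24 above 0) and 0.06 (17 of 24). Klf2, a flow-responsive transcription factor of endothelium, had 76.2, 85.99 and 125 CPM in controls and 99.1, 134, 155, 85.2 and 151 CPM with swimming (0.46 ± 0.17 SE, edgeR adjusted p = 0.166), overlapping groups. In the TGF-beta and BMP list the median was 0.22 and 0.01, in Wnt 0.20 and -0.02, and in glycolysis and hypoxia -0.09 and -0.003. Inflammatory cytokines had a median of 0.67 and -0.19 without replicate 2, and MHC class II genes 0.10 and -0.35, with 0 of 8 above 0 in the latter.

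Endothelial genes, 28 tested, had a median of 0.00 with 14 above 0. The circadian clock list had a median of 0.08 (17 of 24 above 0, and 19 without replicate 2), and Per1 0.46 ± 0.17 (SE, edgeR adjusted p = 0.166). Interferon response genes had a median of 0.29 (27 of 28 above 0), and 0.11 without replicate 2. Ifit1, an antiviral RNA-binding protein gene, had 7.59, 9.23 and 10.6 CPM in controls and 12.01, 19.8, 12.1, 13.9 and 9.47 CPM with swimming (0.54 ± 0.16 SE, edgeR adjusted p = 0.11), where replicate 5 lay inside the control range. Among metabolic genes outside the respiratory chain, the glucose transporter gene Slc2a1 stood at 21.7, 25.7 and 28.4 CPM in controls and 32.3, 29.5, 30.3, 28.7 and 30.8 CPM with swimming, without overlap (0.27 ± 0.07 SE, edgeR adjusted p = 0.0837). Cebpb, a transcription factor whose fall is linked to exercise growth of the heart, had 31.1, 39.7 and 46.1 CPM in controls and 52.4, 74.7, 86.1, 36.7 and 63.1 CPM with swimming (0.68 ± 0.18 SE, edgeR adjusted p = 0.083), with replicate 4 inside the control range. Ucp3, a mitochondrial carrier, had -0.82 ± 0.26 (SE, edgeR adjusted p = 0.132), and the sarcomeric actin gene Actc1 -0.47 ± 0.16 (SE, edgeR adjusted p = 0.138).

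Sox7, an endothelial transcription factor, did not pass the test for swimming under the miR-21 vector. Its controls held 24.4, 31.5 and 40.8 CPM (lowest, median, highest) and its swimming libraries 35.1, 21.2, 20.3, 33.9 and 27.02 CPM. Replicates 2, 3 and 5 were below the control mean and 1 and 4 above it, so the groups overlapped. The log2 fold change was -0.24 ± 0.19 (SE, edgeR adjusted p = 0.486), and 0 of 35 alternatives passed. The difference from the swimming effect under the empty vector was -0.81 ± 0.26 (SE, edgeR adjusted p = 0.103). Vmp1, an autophagy gene whose transcript overlaps the miR-21 locus, had 47.6, 54.7 and 61.2 CPM in controls and 39.1, 68.4, 46.7, 48.2 and 44.5 CPM with swimming (-0.12 ± 0.13 SE, edgeR adjusted p = 0.614), with replicate 2 above and replicates 1, 3 and 5 below all controls. The count table has no row for the miR-21 precursor gene, so the vector's product was not measured.

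Because both groups carried the vector, the contrast holds what swimming added to it and not the effect of miR-21 itself. The mature microRNA is printed with its seed in capitals, from RefSeq (GRCm38.p6, chr11:86584120-86584141, minus strand).
mmu-miR-21a-5p: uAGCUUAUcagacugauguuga
The complement of that seed, ATAAGCT, was searched on the transcript strand of 3′ UTRs (GENCODE, GRCm38, an earlier build than that of the files). It was found in 7.84% of 12982 tested genes with a UTR and in 22 of 31 published targets (71.0%). Among the called genes Cdc42bpg, which rose, held it. Its site is printed below with those of Dusp8 and Timp3, the published targets with the smallest p, with the match in capitals, including the further A where present. They lie at chr19:6325631-6325651 (plus strand), chr7:142080196-142080217 (minus) and chr10:86348213-86348234 (plus).
Cdc42bpg: ataaagccaactttATAAGCT
Dusp8: tgatccctgagaaaATAAGCTA
Timp3: tttttgagctttcaATAAGCTA

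Published miR-21 targets lay on both sides of 0. Of 31 tested, 0 were called, 17 lay above 0, and the median was 0.02 with and without replicate 2. Dusp8, a phosphatase of stress kinases, stood at 41.4, 57.9 and 67.98 CPM in controls and 42.9, 32.00, 40.5, 44.8 and 41.4 CPM with swimming (-0.48 ± 0.13 SE, edgeR adjusted p = 0.0897), overlapping groups. Timp3, an inhibitor of matrix proteases, stood at 264, 369.6 and 419.6 CPM in controls and 409, 479, 504, 353 and 456 CPM with swimming (0.33 ± 0.12 SE, edgeR adjusted p = 0.174), so these targets with an 8-base match had opposite signs. The classical target Pdcd4, a tumour suppressor, had 0.29 ± 0.15. Over all genes the median log2 fold change was 0.01 with the 7-base match and 0.03 without it. The 2073-base UTR of Sox7 held 0 matches.

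The genes that fell had a lower median length than all tested genes. Derived from the authors' FPKM and counts, it was 1556 bases, against 5197 for those that rose and 3541 for all tested genes. When genes were ordered by length and cut into 10 equal bins, in the shortest bin (292 to 1386 bases) the median log2 fold change was -0.04, 41.2% lay above 0, and 6 genes fell and 0 rose. At an unadjusted p under 0.05, 66 were higher and 267 lower there, and 141 and 63 in the longest bin. Across 13501 genes the Spearman correlation of length with the effect was 0.09, and 0.18 without replicate 2. These points share libraries and normalisation, so the values are descriptive. Under the empty vector the shortest bin had a median of 0.03. With each library's length slope as a covariate, an alternative added after seeing the data, 63 genes were called and all 23 were among them. RNA quality was not given per library, and its part in the length pattern was not tested.

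**Figure D4:**
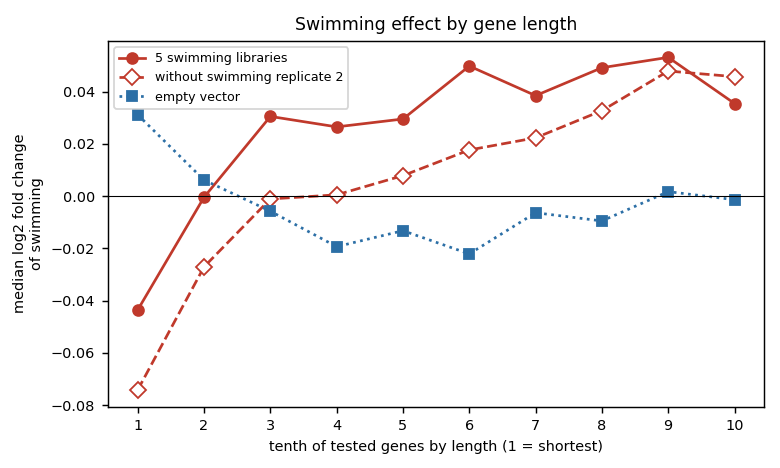
Median log2 fold change of swimming (y axis) by length bin of the tested genes (x axis, 10 bins of equal size, 1 the shortest), for the miR-21 vector with all 5 swimming libraries (filled circles), without swimming replicate 2 (open diamonds) and for the empty vector (squares). The shortest bin is at -0.04, -0.07 and 0.03.

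For some genes the fitted effects of swimming differed between the vectors, and their number depended on the test and the libraries. Under the empty vector 1007 of 13501 genes were called (7.46%), 564 higher (4.18%) and 443 lower (3.28%), with no sample shared with the miR-21 comparison. All 6 swimming libraries there carry the higher title numbers and all 6 controls the lower ones, so swimming and title series cannot be told apart under that vector. The differences between the vectors use that effect, so swimming and title series cannot be fully told apart in them either. In edgeR the fitted swimming effect differed between the vectors in 73 genes (0.541%), 44 with a higher and 29 with a lower value under miR-21. At an unadjusted p under 0.05 in that test there were 2899 (21.5%), and DESeq2 called 719 after adjustment. Without swimming replicate 2 edgeR called 32, 25 of them among the 73, and the balance turned to 11 higher and 21 lower. It turned as well with limma voom (49 higher, 82 lower), whose quality weights can lower the part of an outlying library. With the title series as a term there were 9 higher and 16 lower. That fit takes the miR-21 swimming effect in this difference from the higher-numbered libraries, so replicate 2 does not enter it and it is no separate check. The count was 38 and 19 without empty vector controls 4 and 5, 25, 38, 45, 18 and 27 when replicates 1, 2, 3, 5 and 6 of the empty vector swimming group were dropped, and 34, 25, 21 and 26 without miR-21 controls 1 to 4. It was 147 and 174 without empty vector controls 3 and 6, and 243, 305 and 358 when replicates 1, 3 and 5 of the miR-21 swimming group were dropped. The lower-numbered miR-21 swimming libraries gave 1848 (1304 higher, 544 lower) and the higher-numbered 40 (15 higher, 25 lower). Without miR-21 swimming replicate 2 and empty vector controls 2 and 5 together there were 53 (24 higher, 29 lower), 24 of them among the 73.

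The genes with the smallest p in that test included Rab4a, Wdfy1, Cav1 and Tspan13, called under the empty vector and at -0.13 to 0.01 under miR-21. Rab4a, a GTPase of endosome recycling, averaged 13.5 CPM in empty vector controls and 4.56 CPM with swimming. Under miR-21 it had 13.8, 16.6 and 18.4 CPM without and 17.9, 10.5, 15.9, 13.99 and 18.5 CPM with swimming, overlapping groups, and the difference of effects was 1.48 ± 0.18 (SE, edgeR adjusted p = 0.00026). Wdfy1, an endosomal adaptor, had -1.02 ± 0.11 under the empty vector and 0.01 ± 0.11 under miR-21, a difference of 1.02 ± 0.15 (SE, edgeR adjusted p = 0.00311). Cav1, the main caveolin of endothelium, had 0.73 ± 0.09 and -0.03 ± 0.09, a difference of -0.76 ± 0.12 (SE, edgeR adjusted p = 0.00375), and the tetraspanin gene Tspan13 0.60 ± 0.07 and -0.13 ± 0.08 (difference -0.73 ± 0.10 SE, edgeR adjusted p = 0.00255). Cyp4b1, a cytochrome P450, had 0.72 ± 0.12 and -0.27 ± 0.12 (difference -0.99 ± 0.17 SE, edgeR adjusted p = 0.00812).

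Slc6a7, a proline transporter gene, averaged 5.27 and 0.670 CPM under the empty vector and 0.795 and 3.05 CPM under miR-21, without and with swimming (difference 4.90 ± 0.77 SE, edgeR adjusted p = 0.00375). The predicted gene Gm41885 averaged 12.8 and 0.0735 CPM under the empty vector and 7.51 and 8.19 CPM under miR-21, where control replicate 3 was at 21.4 CPM and the other controls at 3.56 to 7.59 CPM. Gm39743 averaged 0.619 and 0.0118 CPM against 0.550 and 0.800 CPM. Swimming libraries with the empty vector had almost no counts of these predicted genes, so a fitted fold change of either depends on the prior count and is no measure of size.

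Mmd was called under both vectors in opposite directions. It rose with swimming under the empty vector (0.27 ± 0.07) and fell under miR-21 (-0.36 ± 0.07), a difference of -0.62 ± 0.10 (SE, edgeR adjusted p = 0.00313). This difference passed in 33 of 33 alternatives, as did those of Rab4a, Wdfy1, Cav1, Tspan13, Cyp4b1 and Slc6a7. These genes were picked by small p in the same test, and 23 of the 33 alternatives leave out a single library. Their passing is therefore no further support. Yipf4 (difference -0.32 ± 0.07 SE, edgeR adjusted p = 0.031) and Golgb1 (difference 0.35 ± 0.08 SE, edgeR adjusted p = 0.0467) also differed between the vectors.

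Ciapin1, Cdc42bpg, Miip and Plpp3 were called under both vectors with the same sign. Higher title numbers occur in the swimming groups of both vectors and in no control, and their part in these shared signs was not tested. Ciapin1 had -0.37 ± 0.08 under the empty vector beside -0.45 ± 0.09 under miR-21, Miip 0.37 ± 0.08 beside 0.40 ± 0.08, Cdc42bpg 0.29 ± 0.06 beside 0.36 ± 0.07, and Plpp3 -0.20 ± 0.05 beside -0.25 ± 0.05. For Msrb1 the effect under the empty vector was -0.06 ± 0.09, and the difference of -0.51 ± 0.13 (SE, edgeR adjusted p = 0.0611) did not pass. The same holds for Rps29, Tmem258 and Hpdl, whose differences had adjusted p of 0.09, 0.0773 and 0.0997, so these falls are not shown to be particular to the miR-21 vector.

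**Figure D5:**
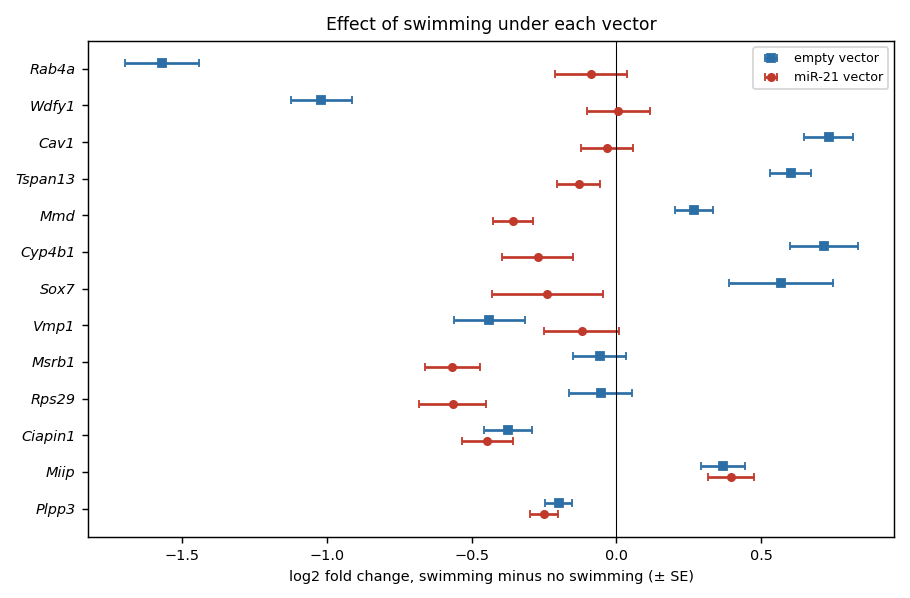
Log2 fold change of swimming against no swimming (x axis, ± SE) under the empty vector (blue squares) and under the miR-21 vector (red circles) for 13 genes. Mmd has opposite signs, Rab4a, Wdfy1 and Cav1 lie near 0 under miR-21 and away from 0 under the empty vector, and Ciapin1, Miip and Plpp3 have the same sign under both.

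Genes that swimming raised under the empty vector were also mostly above 0 here. Swimming replicates 3 to 5 under miR-21 carry the higher title numbers, as do all swimming libraries of the empty vector. The part of the title series in this shared direction was not tested. Of those 564 genes 69.9% had a value above 0 under miR-21, with a median of 0.08, against 56.0% of all tested genes. Without replicate 2 the share was 73.2%, against 52.2%. Of the 443 genes lowered under the empty vector 49.0% lay above 0 here (median -0.01), and 32.7% (median -0.08) without replicate 2. Across 13501 genes the effects under the 2 vectors had a Pearson correlation of -0.45, and 0.24 without replicate 2 over 13496 genes. Genes share libraries and are not independent, so these correlations are descriptions, and the sign changed when that library was left out. Empty vector controls 2, 5 and 4 also stood apart on the first principal component, at 64.6, 57.2 and 32.0. The other empty vector controls were at -4.05 to -1.57. The part of these controls in the correlation was not tested.

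The authors' deposited table for the same comparison lists 22 genes with an adjusted p under 0.05, all lower after swimming. Of these, 4 are among the 23 called here (Msrb1, Rps29, Rnmtl1 and Tmem258), and 20 had an adjusted p under 0.1 here. In the authors' deposited table Msrb1 has a log2 value of -0.57 (adjusted p = 0.00143) and Phka1 -0.66 (0.00143). Fuca2, a lysosomal fucosidase, is at -0.63 (0.00168) and the lipid synthesis enzyme Gpam at -0.48 (0.00634) in the authors' deposited table. The counts gave 375, 471 and 538 CPM of Fuca2 in controls and 330.4, 271, 219.6, 363 and 309.6 CPM with swimming (-0.63 ± 0.14 SE, edgeR adjusted p = 0.0638). For Gpam they gave 319, 333 and 359 CPM in controls and 271, 164, 225, 273 and 272 CPM with swimming (-0.48 ± 0.11 SE, edgeR adjusted p = 0.0664). Rbp7, a retinol-binding protein of endothelium and fat, had 11.7, 15.3 and 18.1 CPM in controls and 7.73, 8.82, 10.1, 6.04 and 8.48 CPM with swimming (-0.85 ± 0.19 SE, edgeR adjusted p = 0.0592). In these 3 genes, chosen after their values were seen, every swimming library was below every control, as in 1.81% of all tested genes. The 7 genes that rose here had adjusted p above 0.05 in the authors' deposited table.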

How the data were processed

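Per the labels, total RNA from hearts was extracted with TRIzol and sequenced from a stranded mRNA kit. The genome build is GRCm39 per the submitters' processing notes, with aligner, counter and strand setting not given in the sources used here. The authors deposited raw counts per gene (21878 genes) and FPKM, used here only to derive gene lengths. The authors' deposited table of the comparison gives mean normalised signal per group, fold ratios, log2 fold changes and p-values. Columns were matched to samples by title, and 46 per-sample columns were not used.

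Genes were filtered with filterByExpr, scaled by TMM and fitted with edgeR 4.0.16 (R 4.3.3) in 1 quasi-likelihood model of 4 groups over 23 libraries, with Benjamini-Hochberg adjustment over 13501 genes. Log2 list levels used a prior count of 2. Alternatives used limma 3.58.1 and DESeq2 1.42.0. Named genes were the called ones, Sox7 and Vmp1, up to 2 per list with the smallest p, those called without swimming replicate 2, the 10 vector differences with the smallest p and 5 just past the threshold. Results of 3 genes, 1 of them called, are not reported here. Other genes were chosen after their values were seen. The comparison, the 35 lists and the 14 added later were chosen with earlier results of these data known. Counts of calls in the added lists are therefore no further support. The 7-base seed complement was searched in 3′ UTRs of GENCODE M21, matched by symbol.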

Additional observations from a re-analysis of the deposited data

Results flagged for a closer look

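In 62 of 316 sets of libraries tested, 1 library lay farther from the rest of its group than Dixon's criterion allows. Chance gives about 1 in 20 only for independent, normally spread values, and these sets share libraries. The 316 also count sets of genes not reported here, which the 62 leave out. Swimming replicate 2 was the library flagged in 41. Immune genes were high in it: the levels in CPM were 3.35 for Cd2, 17.7 for Cd22, 295 for Cxcl13, 6.18 for H2-Ob, 513 for Jchain, 33.1 for Ly6c2, 241 for Ngp, 3.77 for Nkg7, 52.2 for Retnlg and 19.8 for Timd4. Stromal, mesothelial, fat and nerve genes were high as well, at 7.71 for Adam12, 147 for Cfd, 2.82 for Chrdl1, 186 for Comp, 58.7 for Dkk3, 962 for Fn1, 11.9 for Lamc3, 3.35 for Matn4, 20.6 for Mbp, 8.24 for Nkd1, 118 for Pdgfra, 38.4 for Ptprf and 607 for Slpi, in CPM. The stress gene Hmox1 was at 56.1, and genes of the cell cycle and growth at 16.3 for Mcm2, 35.6 for Mki67 and 15.7 for Myc, in CPM. Rnmtl1, called lower after swimming, was low in it at 13.6 CPM.

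Gene list levels of swimming replicate 2, as log2 relative to all 23 libraries, were high at 3.83 for B and plasma cell, 0.80 for DNA replication, 0.82 for TGF-beta and BMP, 4.05 for mesothelial, 0.89 for nerve and Schwann and 0.12 for oligosaccharyltransferase and translocon. They were low at -0.71 for ATP synthase subunits, -0.73 for complex I subunits, -0.32 for glycogen enzymes, -0.35 for lipid droplet and phospholipid enzymes, -0.50 for mitochondrial ribosomal proteins, -0.78 for oxidative phosphorylation and -0.53 for potassium, sodium and calcium channels.

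Other libraries stood apart in fewer sets. Control replicate 2 held the endothelial level at -0.18 (log2). Control replicate 3 held Gm41885 at 21.4 CPM, Ifit2 at 21.6 CPM, Rps28 at 162 CPM, Tmem258 at 77.9 CPM, Tspan13 at 90.2 CPM, the glycolysis and hypoxia level at 0.14 (log2), the oligosaccharyltransferase and translocon level at 0.042 (log2) and the potassium, sodium and calcium channels level at 0.055 (log2). Control replicate 4 held Klf2 at 125 CPM, Rufy3 at 26.9 CPM and the nerve and Schwann level at -0.60 (log2). Control replicate 5 held Comp at 28.2 CPM. Control replicate 6 held Acta1 at 334 CPM, Cxcl2 at 7.53 CPM, Jchain at 19.7 CPM and Slpi at 14.5 CPM. Swimming replicate 3 held Cdh19 at 11.5 CPM and Pdk4 at 449 CPM. Swimming replicate 5 held Ifit2 at 22.2 CPM and Wdfy1 at 35.1 CPM.

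For 14 named genes a test of the difference itself separated the swimming effects under the 2 vectors. On the log2 scale, as the effect under miR-21 minus that under the empty vector, the fitted differences were -0.76 for Cav1, 0.42 for Ccdc9, 11.13 for Cfd, 6.28 for Comp, -0.99 for Cyp4b1, 5.44 for Gm39743, 7.44 for Gm41885, 0.35 for Golgb1, -0.62 for Mmd, 1.48 for Rab4a, 4.90 for Slc6a7, -0.73 for Tspan13, 1.02 for Wdfy1 and -0.32 for Yipf4. Those of Gm39743 and Gm41885 are set against a group with almost no counts, depend on the prior count and are no measure of size. Cfd and Comp were at 147 and 186 CPM in swimming replicate 2. Empty vector controls 2 and 5, also among the adipocyte-high libraries, enter both differences too.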

How the results depend on the processing

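The 23 calls kept their direction in all 35 alternatives, many of which use the same miR-21 libraries, and their count moved. It was 0 with no filter on low counts, with the 2 groups only and with the higher-numbered swimming libraries only, 11 with the 2 groups only and without swimming replicate 2, 63 with a length covariate added after seeing the data, 134 without the 3 adipocyte-high libraries, 299 with limma voom and quality weights (130 higher, 169 lower), 403 with DESeq2 (152 higher, 251 lower), 862 with the lower-numbered swimming libraries only and 1076 with the title series as a term (618 higher, 458 lower). With no filter on low counts 2774 genes had an unadjusted p under 0.05, with the 2 groups only 1954 and with the higher-numbered libraries only 1395. Leaving out each library in turn gave 0 to 86. The 73 differences between vectors became 719 with DESeq2, 131 with limma voom, 25 with the title series as a term, 1848 and 40 with the lower- and higher-numbered swimming libraries only, 204 with the length covariate, and 18 to 358 leaving out each library. The title term can be estimated only within the miR-21 swimming group. With it the 1076 calls rest on the lower-numbered swimming libraries of that group and the 25 differences on the higher-numbered. Calls among listed genes went from 0 to 1 without swimming replicate 2. The cause of these moves was not tested. RLE scaling gave 25 calls and list medians like those of TMM. No paired analysis was possible because the titles carry a different number for every library.

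Of 79 named values that were not called, 13 changed sign in at least 1 alternative, on the log2 scale. With the higher-numbered swimming libraries only the values were -0.036 for Adam12, -0.27 for Cenpe, -2.41 for Cxcl13, -0.058 for H2-DMb1, -0.22 for H2-Ob, -0.41 for Jchain, -1.10 for Lamc3, -0.39 for Mki67, -1.13 for Slpi and -0.019 for Timd4. With limma voom and quality weights the values were -1.89 for Cxcl13, -0.0196 for H2-DMb1, -0.37 for H2-Ob, -0.026 for Jchain, -0.78 for Lamc3, -0.17 for Nkg7 and -0.64 for Slpi. Without the 3 adipocyte-high libraries the values were -2.66 for Cxcl13, -0.025 for Fn1, -0.14 for H2-DMb1, -0.35 for H2-Ob, -0.73 for Jchain, -1.14 for Lamc3, -0.0799 for Nkg7, -1.44 for Slpi and -0.027 for Timd4. With the 2 groups only and without swimming replicate 2 the values were -2.67 for Cxcl13, -0.0305 for Fn1, -0.15 for H2-DMb1, -0.35 for H2-Ob, -0.73 for Jchain, -1.44 for Slpi and -0.036 for Timd4. Without swimming replicate 2 the values were -2.66 for Cxcl13, -0.021 for Fn1, -0.14 for H2-DMb1, -0.34 for H2-Ob, -0.72 for Jchain, -1.14 for Lamc3, -0.076 for Nkg7, -1.43 for Slpi and -0.025 for Timd4. With the title series as a term the value was 0.00400 for Vmp1. With the lower-numbered swimming libraries only the value was 0.018 for Vmp1. Leaving out other libraries one at a time gave up to 4.54 for Cxcl13, 1.46 for Fn1, 0.72 for H2-DMb1, 0.56 for H2-Ob, 5.52 for Jchain, 2.16 for Lamc3, 1.59 for Nkg7, 6.67 for Slpi and 1.61 for Timd4. The cause was not tested. Depth limits Hpdl and Cryba4, which held 25 to 82 and 27 to 82 counts per library.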
